A study of Mus musculus with 6 samples.

Results

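The cells described here are the 2460 of 26698 tumour-infiltrating CD8 T cells that the authors' deposited clustering placed in cluster 3, 1 of 11 clusters. They were taken by that cluster number alone. The study used wild-type C57BL6 mice of both sexes, inoculated under the skin at 6 weeks of age (the age label reads 6 to 8 weeks) with MB49, a mouse urothelial carcinoma cell line. CD8 T cells (live, CD3+ CD8+ CD4-) were sorted from tumours of day 10 and sequenced singly by the 10x Genomics 3' V3 method, which counts unique molecular identifiers (UMIs). Each sex had 3 biological replicates per the labels, all with the same tumour line, host strain, tumour site and day, and the labels give no further allele or treatment. Cluster 3 held 332 cells in female library 2, 555 in female library 5, 228 in female library 6, 437 in male library 1, 290 in male library 3 and 618 in male library 4.

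T cells that meet antigen divide rapidly, and a dividing cell passes from a first gap phase (G1) through DNA synthesis (S) to growth and chromosome segregation (G2 and mitosis, together G2/M). S phase genes are largely driven by E2F factors and encode the helicase, polymerases and nucleotide enzymes that copy DNA, with histones made to pack the new copy. Genes of G2/M are driven by the MuvB complex with B-MYB and FOXM1 and encode the cyclins, kinases, motors and condensins that separate chromosomes.

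Levels are given as CPM, the UMIs of a gene as a share of all UMIs summed over the cells of a cluster in a library, scaled to the same total, and as mean ± SD over 6 libraries unless stated. The sums for cluster 3 held 6633537 to 15270977 UMIs per library. Of the 169 cells whose barcode (84 in number) also occurred in another library, 16 were in cluster 3. Doublets (2 cells under 1 barcode) were not removed. No library went against its sex label in cluster 3, where Xist, the RNA that silences the second X chromosome, had 27781 UMIs in females and 1 in males. The male libraries held 3319 UMIs of Eif2s3y, 2287 of Ddx3y, 526 of Uty and 514 of Kdm5d, all Y-linked, and the female libraries 0. Clusters were made from gene expression in these same cells, so differences between clusters are descriptions without a test, and only the sexes were tested.

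The 4 marker genes fitted the name of a proliferating cluster. Top2a, the topoisomerase that untangles replicated DNA, stood at 840, 847 and 941 CPM in female libraries 2, 5 and 6 and at 824, 913 and 807 CPM in male libraries 1, 3 and 4. In cluster 5 it stood at 126, 140, 117, 147, 123 and 125 CPM in the same order, so each cluster 3 value lay far above each cluster 5 value. Mki67, which encodes the Ki-67 protein that coats mitotic chromosomes, averaged 610 ± 49.8 CPM against 133 ± 18.0 CPM in cluster 5. Cdk1, the kinase that drives entry into mitosis, averaged 241 ± 24.4 CPM against 39.3 ± 3.64 CPM. Mybl1, which encodes the transcription factor A-MYB, was a far weaker gene, at 8.71 ± 1.36 CPM against 2.97 ± 0.880 CPM. Cluster 6, not cluster 5, had the next highest levels of Top2a (420 ± 68.0 CPM) and Mki67 (394 ± 32.9 CPM), and its Mybl1 level of 8.30 ± 2.33 CPM lay within the cluster 3 range. Cluster 6 had only 1742 UMIs per cell at the median, a median mitochondrial share of 30.03%, and a Cdk1 level of 29.998 ± 7.96 CPM, below that of cluster 5. Leaving out clusters 3, 5, 6 and 10, each cluster averaged at most 28.9 CPM of Top2a and 21.3 CPM of Mki67.

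**Figure D1:**
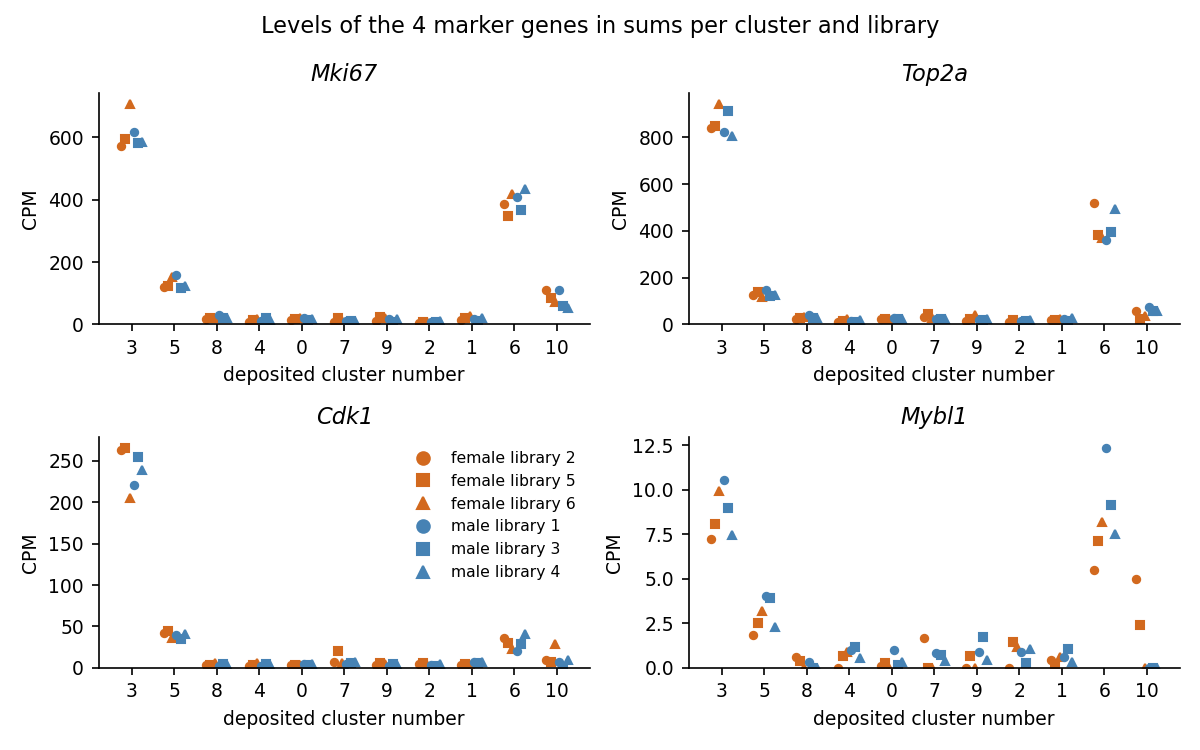
CPM of Mki67, Top2a, Cdk1 and Mybl1 (1 panel each, linear axes from 0) in the sums of each deposited cluster (x axis, ordered by UMIs per cell) and library (points, orange for females and blue for males). Cluster 3 is highest for Mki67, Top2a and Cdk1 in each library, at 571 to 706, 807 to 941 and 205 to 265 CPM, while its Mybl1 values of 7.24 to 10.6 CPM overlap those of cluster 6.

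The same markers were read in single cells after thinning each cell to 5000 UMIs, which left out 63 cluster 3 cells. Top2a was then found in 95.4% of cluster 3 cells, 35.6% of cluster 5 cells and 7.40% of cells of cluster 7, a resting cluster taken as the background. Mki67 was found in 91.6%, 38.5% and 3.49%, and Cdk1 in 65.3%, 15.9% and 2.65% of the same cells. Mybl1 was found in 4.76%, 1.06% and 0.209%, so most cluster 3 cells carried no Mybl1 UMI at this depth. In clusters 0 and 8, Top2a was found in 10.5% and 12.8% and Mki67 in 7.67% and 9.20% of cells, above cluster 7. Cdk1 was found there in 1.76% and 2.09% of cells, below cluster 7. Without thinning the shares in cluster 3 were 99.6% for Top2a, 99.7% for Mki67, 93.2% for Cdk1 and 19.4% for Mybl1, at median depths of 23987.5 UMIs in cluster 3, 18351 in cluster 5 and 7465 in cluster 7.

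The cells also carried the genes of the sort. Cd3g, Cd3d, Cd8b1 and Cd8a stood at 1124 ± 158, 944 ± 90.7, 613 ± 51.9 and 559 ± 50.3 CPM, and Cd4 had 10 UMIs in all cluster 3 cells. The 5 measured markers of CD4 and regulatory T cells summed to 17.4 to 34.8 CPM per library in cluster 3, 19.7 to 40.3 CPM in cluster 5 and 3.45 to 10.4 CPM in cluster 2. Most came from Ikzf4, with 1382 UMIs, and Foxp3, the regulatory T cell factor, had 73 UMIs in female and 3 in male libraries (edgeR adjusted p = 0.134). Markers of cells outside the T lineage varied in level. The 5 measured markers of tumour epithelium summed to 3.21 to 7.54 CPM per library, with Krt19 and Krt7 at 0, and the 3 of B and plasma cells to 2.08 to 3.46 CPM. The 5 of fibroblasts and endothelium summed to 6.38 to 10.8 CPM, nearly all from Pecam1, with Dcn at 0. The 11 myeloid markers summed to 210 to 234 CPM in cluster 3 and 211 to 239 CPM in cluster 5, of which Cst3 gave 191 ± 23.0 CPM, and the macrophage marker Adgre1 had 2 UMIs. The 7 natural killer or innate-like markers summed to 139 to 230 CPM, mostly from Klre1, and Ncr1 had 9 UMIs. The 6 dendritic cell markers summed to 9.24, 12.4 and 16.4 CPM in female libraries and 55.5, 19.1 and 69.0 CPM in male libraries 1, 3 and 4, and are taken up with the sexes. Trac, Trbc1, Trbc2 and Trdc were not analysed here.

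Promoters of marker and mitotic genes are shown because cluster 3 differed from cluster 5 by a set of genes, of which many are known targets of the same regulators. The sequences are the 150 bases before the RefSeq start of each gene, 5′ to 3′ on the gene's strand, in build GRCm38.p6. Capitals mark, on either strand, the cell cycle homology region (CHR, TTTGAA or TTTAAA), the CCAAT box (CCAAT) and an E2F motif (TTTCCCGC, TTTGGCGC or TTTCGCGC). Mcm6, a replication gene that was not higher in cluster 3, is shown for comparison, and Mybl1 is named only.
Top2a, chr11:99024190-99024339, minus strand: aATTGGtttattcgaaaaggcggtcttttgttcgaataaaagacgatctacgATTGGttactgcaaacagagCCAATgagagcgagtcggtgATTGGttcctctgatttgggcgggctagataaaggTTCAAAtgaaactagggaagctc
Mki67, chr7:135716380-135716529, minus strand: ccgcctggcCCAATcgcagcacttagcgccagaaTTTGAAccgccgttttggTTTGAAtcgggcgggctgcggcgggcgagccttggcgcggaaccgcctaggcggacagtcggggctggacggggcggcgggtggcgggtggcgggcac
Cdk1, chr10:69352913-69353062, minus strand: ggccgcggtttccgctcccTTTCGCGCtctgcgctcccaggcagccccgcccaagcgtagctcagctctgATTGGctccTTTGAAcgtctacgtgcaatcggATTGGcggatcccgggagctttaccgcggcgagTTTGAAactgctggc
Plk1, chr7:122159285-122159434, plus strand: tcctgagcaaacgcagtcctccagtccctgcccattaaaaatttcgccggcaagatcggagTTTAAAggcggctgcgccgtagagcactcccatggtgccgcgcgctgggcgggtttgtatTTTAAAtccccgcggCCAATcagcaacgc
Ccnb1, chr13:100786487-100786636, minus strand: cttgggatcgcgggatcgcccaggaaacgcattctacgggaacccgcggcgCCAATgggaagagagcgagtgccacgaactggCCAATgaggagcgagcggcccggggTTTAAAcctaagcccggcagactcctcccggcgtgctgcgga
Mcm6, chr1:128359706-128359855, minus strand: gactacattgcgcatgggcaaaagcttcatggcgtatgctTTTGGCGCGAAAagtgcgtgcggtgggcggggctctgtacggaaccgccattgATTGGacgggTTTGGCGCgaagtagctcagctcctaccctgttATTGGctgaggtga
The 5 mitotic or marker promoters each hold a CHR and a CCAAT box, in either orientation. The Mcm6 promoter holds E2F motifs and CCAAT boxes and no CHR in these letters.

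The same letters were counted in the 250 bases before the start of every gene with a RefSeq promoter. Of the 146 genes higher in cluster 3 than in cluster 5 (defined below), 125 had one. A CHR was found in 40.8% of these, against 21.2% of the 4521 matched genes that reached 20 CPM in cluster 3 or 5 and 28.1% of all 27025 promoters. A CCAAT box was found in 69.6%, against 40.7% and 37.5%, and both motifs together in 32.8%, against 8.27% and 10.1%. An E2F motif was found in 10.4%, against 4.56% and 1.78%. A CHR was not general among mitotic genes. It was found in 10 of 22 matched spindle genes, 8 of 23 kinetochore genes and 3 of 13 mitotic kinase genes. It was found in 8 of 16 genes of anaphase exit and cytokinesis, and in 3 of 25 fork and nucleotide genes. The replication-dependent histone list, which gave 14 of the 146 genes, held a CHR in 36 of 55 matched genes (65.5%), more than any of these lists. Of the 16 matched replication licensing genes 6 held one, but only 72.7% of that list had a promoter, under the 80% needed to read a share. Mcm6 therefore does not stand for its list. The letters are short, and a match is not a measured binding site.

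Cluster 3 held the cells with the most RNA molecules counted. The median UMI count per cell was 28293.5, 23792 and 27023.5 in female libraries 2, 5 and 6 and 22209, 28063.5 and 21226.5 in male libraries 1, 3 and 4. In each library it was the highest of the 11 clusters. The ratio of medians to cluster 5, the next deepest, was 1.29 ± 0.0253, with a range of 1.26 to 1.33, so this ratio varied little between libraries whose depth differed. The ratio was 1.77 ± 0.112 to cluster 8, 2.61 ± 0.0844 to cluster 0 and 14.0 ± 0.739 to cluster 6. Single cells of cluster 3 ranged from 840 to 129226 UMIs, with a median of 4535 genes and a median mitochondrial share of 4.13%.

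**Figure D2:**
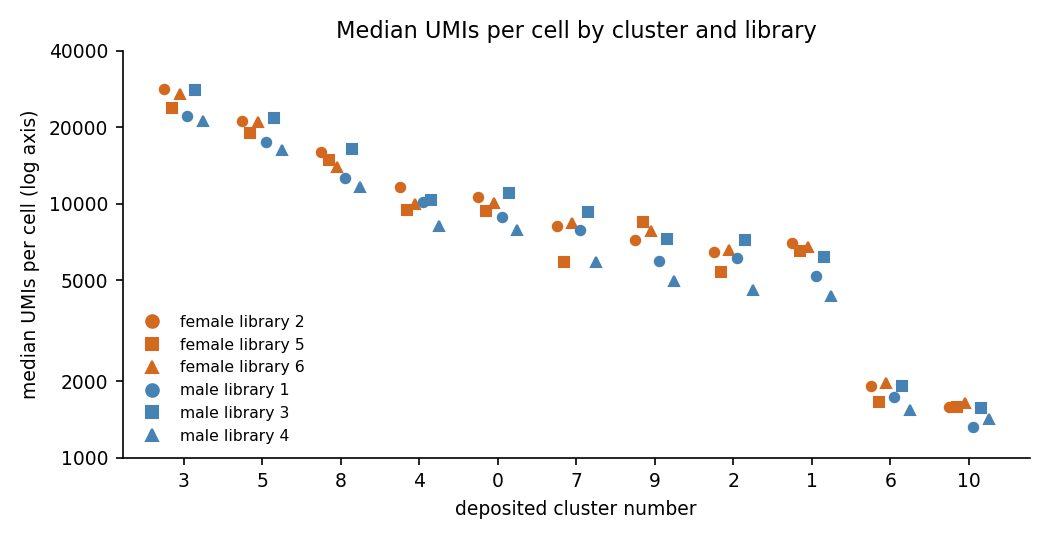
Median UMIs per cell (y axis, log scale) for each deposited cluster (x axis) and library (points). Cluster 3 lies above cluster 5 in each library by a ratio of 1.26 to 1.33.

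Set against cluster 5, cluster 3 carried more RNA of chromosome segregation genes, while replication genes leaned the same way by less and T cell receptor genes leaned slightly to cluster 5. A gene was counted as higher where its ratio of CPM + 1 was at least 2-fold in each of the 6 libraries and it averaged at least 20 CPM in the higher cluster. Of 5546 genes at that level, 146 were higher (2.63%) and 0 lower (0%). Of the 146, 120 were on a cell cycle or histone list and 26 on none of these. The share of all tested genes on these lists is not given, so such pooled counts, here and below, are not read as an excess. The list medians below are log2 ratios over all measured members, and the median of the 5546 genes was -0.00.

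Genes of the spindle stood furthest apart. All 25 measured spindle and motor genes were above cluster 5 in each of 6 libraries, with a median of 2.39, where 25.01% of the 5546 genes were above 0 in each library. The 23 that reached 20 CPM all passed the 2-fold rule. Nusap1, which bundles spindle microtubules, stood at 193, 203 and 199.6 CPM in the female libraries and 170, 203 and 184 CPM in the male libraries of cluster 3. In cluster 5 it stood at 12.1, 14.8, 7.23, 15.5, 9.47 and 15.6 CPM, the largest gap of any gene that passed, at a log2 ratio of 3.89 ± 0.48. Prc1, which holds the midzone of the spindle together, had a ratio of 3.38 ± 0.21 and Kif11, the motor that pushes spindle poles apart, 3.17 ± 0.20.

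Mitotic kinases and the kinetochore followed. In the kinase and checkpoint list 12 of 15 members at 20 CPM passed (median 2.07 over 16 measured), and in the centromere and kinetochore list 16 of 21 (median 1.83 over 26). Plk1, the kinase that acts from mitotic entry to cytokinesis, stood at 61.8, 66.1, 68.7, 62.3, 66.4 and 54.9 CPM in cluster 3, in the library order above. Its cluster 5 values were 6.46, 5.89, 5.199, 8.17, 4.51 and 6.22 CPM, a log2 ratio of 3.20 ± 0.32. Aurkb, the kinase that corrects chromosome attachment, had a ratio of 2.94 ± 0.15. The kinetochore genes Cenpf and Spc25 had ratios of 3.38 ± 0.34 and 3.03 ± 0.26. Bub1 and Bub1b, of the spindle checkpoint, had ratios of 2.28 ± 0.12 and 2.07 ± 0.29.

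Genes that hold and then release the chromosomes were higher in cluster 3 too. The condensin and cohesin list had 11 of 16 members past the rule (median 1.68). Esco2, which acetylates cohesin during replication, stood at 107 ± 7.12 CPM against 7.98 ± 2.10 CPM (3.61 ± 0.36). Espl1, the separase that cuts cohesin at anaphase, had a ratio of 2.78 ± 0.35. In the list for anaphase exit and cytokinesis 17 of 19 at 20 CPM passed, with a median of 2.10 over 20 measured. Cdc20, which activates the anaphase-promoting complex, did not pass, since its lowest ratio was 0.96, although it averaged 85.0 ± 8.21 CPM against 31.7 ± 5.80 CPM.

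Replication-dependent histone genes were higher in cluster 3 although they belong to S phase. Of 62 measured, 57 were above cluster 5 in each library (median 1.24), and 14 of the 17 at 20 CPM passed. Hist1h2ap, a histone H2A gene, averaged 1219 ± 466 CPM against 109 ± 29.97 CPM (3.43 ± 0.23), and Hist1h1b, a linker histone gene, 354 ± 50.02 CPM against 34.8 ± 12.3 CPM (3.39 ± 0.48). The SD of Hist1h2ap shows a wide spread between libraries in level, while the ratio within a library varied less. Histone genes share near-identical copies, so reads may have been split among them, and most of their messages lack the poly(A) tail that the kit primes on.

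**Figure D3:**
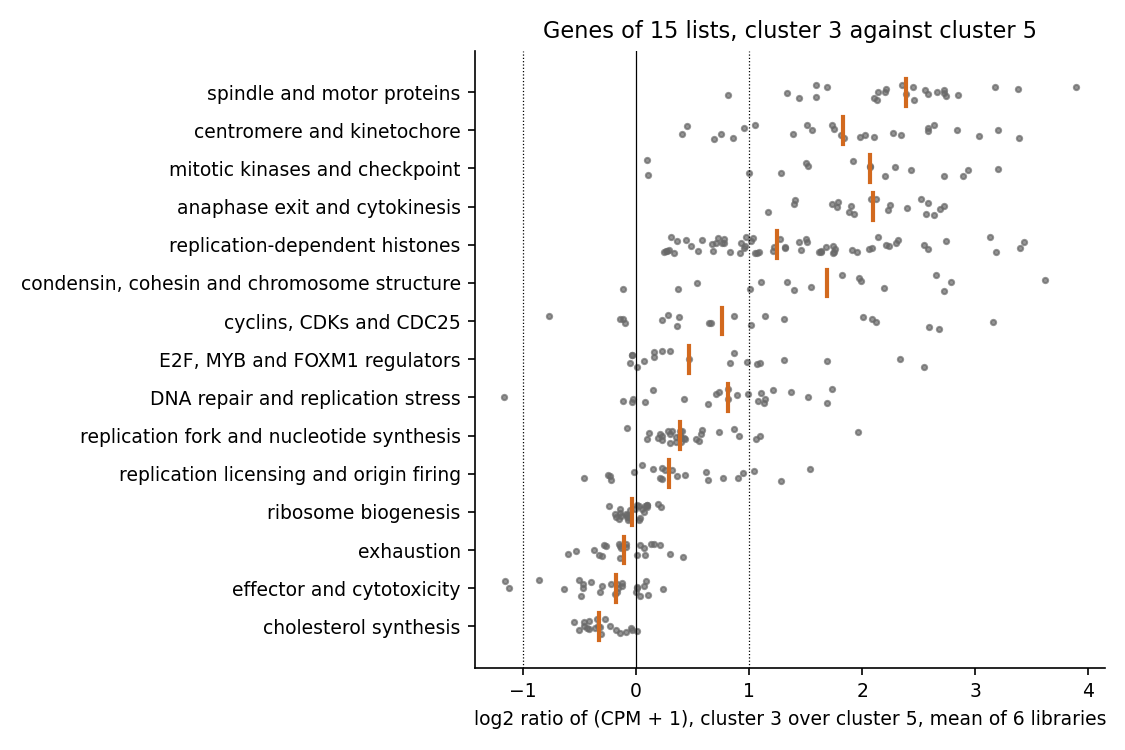
Log2 ratio of CPM + 1, cluster 3 over cluster 5 (x axis, mean of 6 libraries), for every measured member (points, spread vertically for display) of 15 gene lists, with the list median as an orange bar and dotted lines at 2-fold. Lists of mitosis centre near 2, histones at 1.24, the replication lists at 0.29 and 0.39 (licensing, fork), and the T cell and cholesterol lists at or below 0.

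Replication genes leaned towards cluster 3 by less than mitotic genes. In the fork and nucleotide list 29 of 31 measured members were above cluster 5 in each library and 1 below, and in the licensing and origin list 14 of 22 above and 4 below, against 25.01% of the 5546 genes above and 23.0% below. In the licensing and origin list 1 of 19 members at 20 CPM passed (median 0.29 over 22), namely Ticrr, which helps fire origins, at 1.54 ± 0.14. Dbf4, which activates the kinase that fires origins, had a ratio of 1.28 and Cdc45, part of the active helicase, 0.95. The helicase subunits Mcm2, Mcm3, Mcm4 and Mcm6 were the 4 licensing genes below cluster 5 in each library, with ratios of -0.46, -0.25, -0.23 and -0.23. Mcm6 stood at 155, 163, 162, 173, 164 and 166 CPM in cluster 3 and 185, 199.5, 199, 189.6, 189.9 and 189.8 CPM in cluster 5, with no overlap. Mcm5 was even at -0.02 and Mcm7 was at 0.26. In the fork and nucleotide list 1 of 30 at 20 CPM passed (median 0.39 over 31), namely Rrm2, a subunit of the enzyme that makes deoxynucleotides, at 1.96 ± 0.15. The sliding clamp gene Pcna was at 0.40 and Tyms, which makes thymidylate, at 1.09 with a lowest library of 0.98, just outside the rule. Ung, which removes uracil from DNA, had the lowest ratio of any gene at 20 CPM, at 20.9 ± 6.13 CPM against 46.8 ± 3.35 CPM (-1.17 ± 0.29), and it still missed the 2-fold rule in some library.

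Regulators of the cycle were split. Of the E2F, MYB and FOXM1 list 3 of 16 at 20 CPM passed (median 0.47 over 19). Foxm1, which activates mitotic genes, was at 48.4 ± 5.93 CPM against 7.46 ± 1.04 CPM (2.55 ± 0.12), and the repressors E2f8 and E2f7 were at 2.34 ± 0.35 and 1.69 ± 0.16. E2f1, the activator of S phase genes, was even at 29.8 ± 4.80 CPM against 30.3 ± 2.93 CPM. Mybl2, which encodes B-MYB, was at 34.7 ± 3.74 CPM against 16.0 ± 1.71 CPM, with a lowest ratio of 0.86, outside the rule.

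In the cyclin and CDK list 6 of 16 at 20 CPM passed (median 0.76 over 20). Ccna2, the cyclin of S and G2, was at 192 ± 15.3 CPM against 29.2 ± 3.13 CPM (2.68 ± 0.21), and Ccnb1, the partner of Cdk1 in mitosis, at 96.4 ± 10.8 CPM against 21.6 ± 4.05 CPM (2.12 ± 0.32). Ccnf, a cyclin that marks proteins for destruction in G2, had a ratio of 3.16 ± 0.33. Ccnd2, the cyclin that carries mitogen signals in G1, leaned the other way. It stood at 178, 139.9, 124, 194, 139 and 190.1 CPM in cluster 3 and 269, 247, 254, 319, 247 and 299 CPM in cluster 5, lower in each library, at -0.77 ± 0.16. CDK inhibitors of the INK4 family were higher in cluster 3, Cdkn2c at 54.1 ± 5.64 CPM against 11.8 ± 1.38 CPM (2.11 ± 0.15) and Cdkn2d at 126 ± 17.3 CPM against 43.0 ± 4.24 CPM (1.53 ± 0.18).

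Some of the largest gaps lay outside the lists. Mxd3, a MAX-binding repressor gene, averaged 45.4 ± 6.07 CPM against 2.96 ± 0.406 CPM (3.55 ± 0.29). In all 23 of the 146 genes were on no list, among them Neil3, Sapcd2, Prr11, Stil, Diaph3 and Trip13, named after their values were seen. Just inside the threshold, Tmpo, Hist1h1c and Ube2s had lowest library ratios of 1.02, 1.02 and 1.03. Just outside it, Gpsm2, Zwilch and Fzr1 had 0.99, 0.99 and 0.98.

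Genes of T cell function did not separate the 2 clusters by 2-fold in each library. None of the T cell receptor, exhaustion, effector, stem-like, activation, interferon, glycolysis, respiration, ribosome biogenesis, cholesterol or chaperone lists had a member past the rule. The list medians were small and mostly towards cluster 5, while some single genes differed by more. In the T cell receptor list 11 of 13 members were lower in cluster 3 in each library (median -0.18), where 23.0% of the 5546 genes were. Cd8a, for example, was at -0.25 ± 0.03. In the effector list 13 of 26 were lower in each library (median -0.18), and among members at 20 CPM granzymes C, D and E were lowest. Gzmc was at 397 ± 84.4 CPM against 617 ± 111 CPM (-0.64 ± 0.11), and Gzmd had a ratio of -0.86 ± 0.33. Gzme was at 92.4 ± 28.5 CPM against 201 ± 32.9 CPM. Its mean ratio of -1.16 ± 0.62 was past 2-fold, but its libraries ranged from -2.14 to -0.42. In the exhaustion list 9 of 22 were lower in each library (median -0.11). The receptor gene Pdcd1 was at 287 ± 55.9 CPM against 371 ± 63.7 CPM and Cxcr6, a chemokine receptor of tissue T cells, at 337 ± 67.3 CPM against 508 ± 66.7 CPM. Cholesterol synthesis had a median of -0.33, with 11 of 20 lower in each library. CPM is a share of all UMIs, so a gene at the same number per cell reads lower where cells hold more RNA. Cd8a was found at 15.8 UMIs per cell in cluster 3 and 14.2 in cluster 5, and Pdcd1 at 8.05 and 7.94. These values cover Cd8a and Pdcd1 only, and whether the lower CPM of the granzymes and Cxcr6 followed from depth was not tested.

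Phase calls split the 2 clusters. Each cell was scored on Seurat's S and G2/M gene lists after thinning to 5000 UMIs. In cluster 3, 63.9% of 2397 cells were called G2/M and 36.1% S, and G1 was called in 0 of 2397 cells, which allows a share of up to 0.125% at this thinning. Thinned to 2000 UMIs, 10 of 2454 cells (0.407%) were called G1, and thinned to 10000 UMIs, 2 of 2260. In cluster 5, 19.6% of 2258 cells were called G2/M, 73.4% S and 7.04% G1. At the same thinning, 25.3% of 1432 cells of the resting cluster 7 were called S and 1.05% G2/M. In cluster 0, 10.1% of 4421 cells were called S and 1.11% G2/M. S calls were therefore also made outside clusters 3 and 5. Cluster 6 had only 90 cells deep enough to score, of which 53.3% were called G2/M, so a high G2/M share was not confined to cluster 3. The G2/M share of cluster 3 was 67.4%, 66.1% and 58.8% in female libraries 2, 5 and 6 and 57.6%, 66.8% and 64.8% in male libraries 1, 3 and 4. In cluster 5 it ran from 17.7% to 24.6%, so the clusters did not overlap. Without thinning the shares in cluster 3 were 66.5% G2/M and 33.5% S, and in cluster 5 21.2% and 74.96%. The calls are cuts on a range, and 506 of the 2397 cells (21.1%) had scores within 0.1 of each other. The scored genes were among those that made the clusters, so the split is a description, and free RNA from lysed cells can enter such scores, a part that was not tested.

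**Figure D4:**
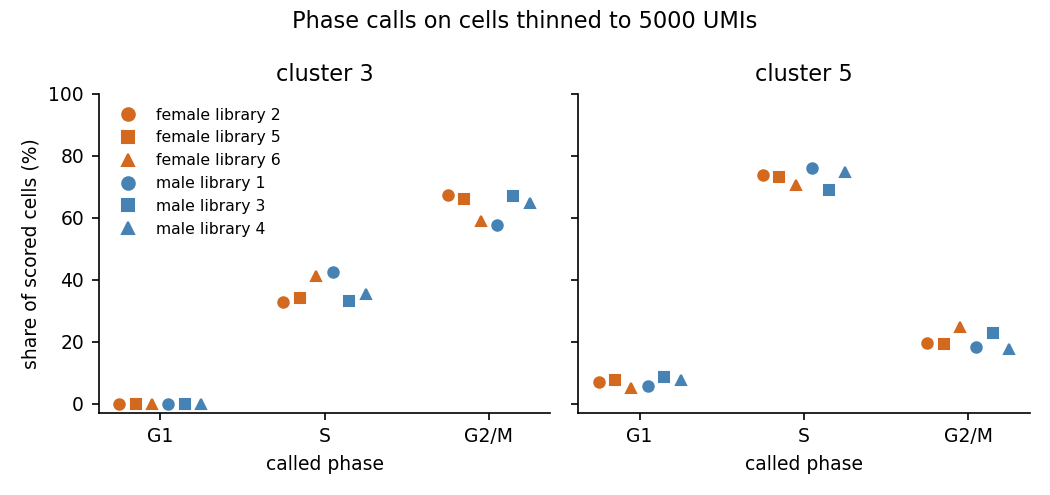
Share of scored cells (y axis, %) called G1, S or G2/M (x axis) in cluster 3 (left) and cluster 5 (right), with 1 point per library. G2/M takes 57.6% to 67.4% of cluster 3 and 17.7% to 24.6% of cluster 5.

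The excess of UMIs in cluster 3 was present within each phase. Among G2/M-called cells the median of cluster 3 over that of cluster 5 was 1.44 ± 0.0483 (range 1.39 to 1.497), and among S-called cells 1.34 ± 0.103 (range 1.21 to 1.47). Within cluster 3, G2/M-called cells had fewer UMIs than S-called cells, with a ratio of medians of 0.909 ± 0.0724 and a range of 0.818 to 0.992.

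The 2 phases of cluster 3 were then compared with each other, on genes outside the scored lists. By the same 2-fold rule, 22 of 5611 genes were higher in G2/M-called cells (0.392%) and 5 lower (0.0891%). The phases were called from cell cycle genes, so this too is a description. Ccnb1 was at 128 ± 18.4 CPM in G2/M-called and 30.3 ± 4.38 CPM in S-called cells (2.04 ± 0.24), and Plk1 at 87.2 ± 6.58 and 24.0 ± 5.70 CPM (1.84 ± 0.32). Cdkn3, a phosphatase that acts on CDKs, had a ratio of 2.04 ± 0.21 and Cdc25b, the phosphatase that activates them, 1.89 ± 0.47. Pif1, a DNA helicase gene, had the largest ratio, at 20.5 ± 5.30 and 1.89 ± 0.386 CPM (2.86 ± 0.37). The lower genes included E2f1, at 18.6 ± 7.58 and 60.8 ± 6.99 CPM (-1.74 ± 0.43), and Shmt1, Mthfd1 and Mettl1. Shmt1 and Mthfd1 encode enzymes of folate metabolism, which feeds nucleotide synthesis, and had ratios of -1.80 and -1.24.

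Ribosome biogenesis genes also leaned to S-called cells, with a median of -0.69 over 25 members outside the scored lists, none past 2-fold in each library. Spindle genes outside the scored lists had a median of 1.29 over 12 and fork genes -0.58 over 20. The T cell lists had smaller medians, at 0.16 for the receptor complex, 0.13 for exhaustion and 0.05 for effector genes. The median over all genes is not given for this comparison, so these list medians are read only beside each other.

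Set against each other cluster by the same rule, cluster 5 gave the fewest differing genes. Cluster 3 was higher in 423 genes (7.46%) and lower in 27 (0.476%) than cluster 8, and higher in 458 (7.93%) and lower in 42 (0.727%) than cluster 0. It was higher in 409 genes (7.05%) and lower in 147 (2.53%) than cluster 4, higher in 500 (8.39%) and lower in 248 (4.16%) than cluster 1, and higher in 677 (11.5%) and lower in 304 (5.15%) than cluster 2. Against cluster 7 the counts were 602 (10.4%) and 166 (2.87%), and against cluster 9 470 (8.01%) and 230 (3.92%). Against the shallow clusters 6 and 10 they were 1168 (19.3%) and 557 (9.2%), and 537 (8.74%) and 234 (3.81%). Between 130 and 225 of the genes higher in cluster 3 than in these clusters were on a cell cycle or histone list.

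Against all other cells together, 330 of 5739 genes were higher in cluster 3 (5.75%), 211 of them on cell cycle or histone lists, and 33 lower (0.575%). Nusap1 was again furthest apart, at a log2 ratio of 5.15. The lower genes included markers of resting and recirculating T cells. Tcf7, the transcription factor of stem-like T cells, stood at 22.2 ± 14.4 CPM against 88.7 CPM, and S1pr1, the egress receptor, at 13.3 ± 5.77 CPM against 54.4 CPM. Klf3, a factor of resting lymphocytes, had a ratio of -2.13 and Pik3ip1, an inhibitor of PI3 kinase, -1.94. Tcp11l2 had the lowest ratio at -2.60. The interferon-induced genes Ifit3 and Ifit1 had ratios of -2.34 and -2.31. Tcf7 stood at 333 CPM in cluster 7 and at 20.1 ± 11.3 CPM in cluster 5, close to cluster 3.

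CPM and UMIs per cell gave different orders for some effector genes. Ccl5, a chemokine gene, was at 1418 ± 254 CPM in cluster 3 and 6908 CPM in cluster 0, and at 40.0 and 74.9 UMIs per cell, lower in cluster 3 on both scales. Cd8a was at 559 CPM in cluster 3 and 907 CPM in cluster 0, but at 15.8 and 9.75 UMIs per cell, so its order turned with the scale. Gzmb, the granule protease granzyme B, was at 5238 ± 1648 CPM in cluster 3 and 8584 CPM in cluster 8, and at 151 and 140 UMIs per cell.

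The sexes were compared over libraries, 3 female against 3 male, where an exact permutation of 20 assignments cannot go below p = 0.10. Cluster 3 made up 11.5%, 11.2% and 10.7% of the cells of female libraries 2, 5 and 6 and 6.93%, 8.84% and 8.64% of male libraries 1, 3 and 4. Each female share lay above each male share, with means of 11.2% ± 0.371 and 8.13% ± 1.05 (SD, n = 3, exact two-sided permutation p = 0.10, the smallest possible). The difference did not pass edgeR's quasi-likelihood test on cell counts (log2 ratio, male minus female, -0.46, SE 0.209, adjusted p = 0.117 over 11 clusters). It passed when clusters 2, 6 and 10 were left out of the total (-0.38, edgeR adjusted p = 0.0341), and the adjusted p lay between 0.0899 and 0.308 when single libraries were left out. The lower male share was not particular to cluster 3. Cluster 5 made up 9.92%, 10.7% and 9.62% of the female libraries and 6.39%, 8.38% and 8.66% of the male libraries, also without overlap. Among cells of clusters 3 and 5 alone, cluster 3 took 52.6% ± 1.18 in females and 51.1% ± 1.07 in males (exact permutation p = 0.30, n = 3 each). The exact 95% binomial interval of the cluster 3 share, for counting error alone, was widest in female library 6, from 9.46% to 12.1%.

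The direction of any sex difference in depth or phase depended on how it was measured. Female libraries had a median UMI count of 26370 ± 2321 and male libraries one of 23833 ± 3697 (SD, 3 libraries a sex, exact permutation p = 0.30), with overlap. Divided by the median of all cells of the library it was 2.77 ± 0.229 in females and 3.18 ± 0.135 in males, without overlap and in the other direction (exact permutation p = 0.10). The G2/M share was 64.1% ± 4.60 in females and 63.0% ± 4.86 in males (exact permutation p = 0.60, n = 3 each). Its difference of -1.05 percentage points turned to 1.69 without male library 1, to 0.59 without female library 2 and to 0.29 without thinning.

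Few genes were called as different between the sexes within cluster 3. With 3 libraries a sex, differences can go uncalled. In simulated data with the same spread set for every gene, the test recovered 20 of 50 genes changed 1.5-fold. Large differences in genes that varied between libraries also did not pass, such as that of Ccr7 at 1.38 (edgeR adjusted p = 0.855). Of 10534 genes tested with edgeR's quasi-likelihood test, 15 were called at an adjusted p under 0.05 (0.142%), 7 higher (0.0665%) and 8 lower (0.0759%) in males. Of these, 9 were sex chromosome genes of the label check, and 6 others remained, 3 in each direction. The 4 marker genes did not pass the test, with log2 differences of -0.08 for Mki67, -0.06 for Top2a, -0.06 for Cdk1 and 0.09 for Mybl1 and edgeR adjusted p of 0.971 to 0.979.

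Gzma, which encodes the granule protease granzyme A, was higher in females. It stood at 1680, 1294 and 1741 CPM in female libraries 2, 5 and 6 and at 713, 712 and 575 CPM in male libraries 1, 3 and 4, and the sexes did not overlap. The log2 difference was -1.25 (SE 0.124, edgeR adjusted p = 0.000850). Gzma lies on chromosome 13 from 113093825 to 113100981 (mm10, minus strand). It passed in 13 of 14 alternatives, with adjusted p from 7.19e-22 up, and did not pass without the deepest 5% of cells, where the difference was -1.22 and the edgeR adjusted p 0.841. Cluster 5 showed the same order, with female libraries at 2338, 1710 and 1719 CPM and male libraries at 844, 906 and 524 CPM.

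Ifitm1, which encodes an interferon-inducible membrane protein, was also higher in females. It stood at 871, 1014 and 1055 CPM in female and 581, 586 and 467 CPM in male libraries, without overlap (log2 difference -0.86, SE 0.102, edgeR adjusted p = 0.0015). It passed in all 14 alternatives run, at an adjusted p of up to 0.0263. It lies on chromosome 7 from 140967221 to 140969825 (mm10, plus strand). Its neighbour in function Ifitm2 did not pass, at 379 ± 70.4 and 207 ± 30.03 CPM (-0.88, edgeR adjusted p = 0.0537), but passed in 7 of 14 alternatives.

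Egln3, an oxygen-sensing hydroxylase that acts on HIF factors, was higher in females at 13.7, 12.9 and 14.5 CPM against 6.66, 9.08 and 7.13 CPM in males (log2 difference -0.87, edgeR adjusted p = 0.0472). It was a weak gene, with 437 and 264 UMIs, and passed in 5 of 14 alternatives, whose adjusted p reached 0.326. It lies on chromosome 12 from 54178981 to 54203860 (mm10, minus strand).

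The 3 genes higher in males were each without overlap. Tnfsf8, the ligand of the receptor CD30, stood at 5.15, 4.13 and 6.48 CPM in female and 17.9, 12.5 and 10.96 CPM in male libraries (log2 difference 1.41, SE 0.209, edgeR adjusted p = 0.0181). It lies on chromosome 4 from 63831308 to 63861347 (mm10, minus strand) and passed in 9 of 14 alternatives (adjusted p up to 0.197). Nr4a2, a nuclear receptor induced by T cell receptor signals, stood at 153.7, 152.7 and 155 CPM in female and 231, 197 and 219 CPM in male libraries (0.47, SE 0.080, edgeR adjusted p = 0.0415). The 3 female values lay within 3 CPM of each other while the male values spread more. It lies on chromosome 2 from 57106830 to 57124003 (mm10, minus strand) and passed in 7 of 14 alternatives (adjusted p up to 0.266). Eno3, the muscle form of the glycolytic enzyme enolase, stood at 11.9, 11.001 and 16.6 CPM in female and 25.7, 20.6 and 24.5 CPM in male libraries (0.86, SE 0.145, edgeR adjusted p = 0.0415). It lies on chromosome 11 from 70657202 to 70662513 (mm10, plus strand) and passed in 8 of 14 alternatives (adjusted p up to 0.837).

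**Figure D5:**
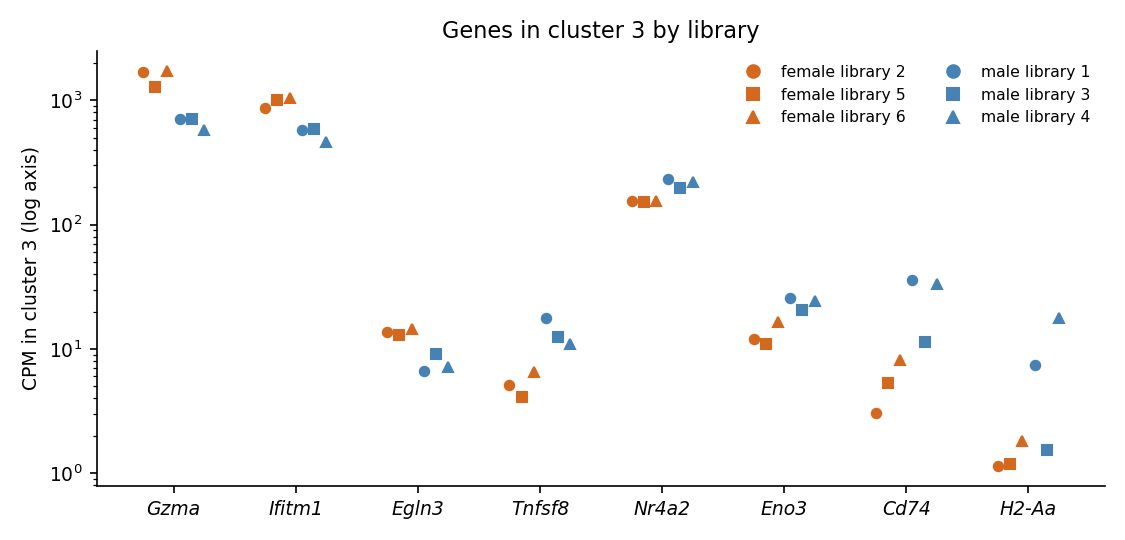
CPM in cluster 3 (y axis, log scale) of the 6 called genes outside the label check and of 2 class II genes (x axis), with 1 point per library, orange for females and blue for males. Gzma, Ifitm1 and Egln3 lie higher in each female library, Tnfsf8, Nr4a2 and Eno3 higher in each male library, and H2-Aa overlaps.

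The next genes by p did not pass. On the male side these were Relb, an NF-kB subunit gene (female libraries 32.3 ± 1.80 CPM, male libraries 47.3 ± 4.03 CPM, edgeR adjusted p = 0.0513), Sdhaf1, Snhg12, Plk2 and Prkce. On the female side they were Ifitm2, S100a6 (1478 ± 0.957 and 1073 ± 93.8 CPM, edgeR adjusted p = 0.0689), F2r, Adam19 and Ppp1r3b. Relb and S100a6 each passed in 4 of 14 alternatives. The female SD of S100a6 was far smaller than that of other genes at this level.

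Lists are given by counts beside all genes tested, of which 6.19% had each male library above each female library and 3.89% each below. Of the stem-like and memory list 16 of 18 tested members were higher in males (median log2 difference 0.55, against -0.00 for all genes), 4 of them without overlap, and 1, Tnfsf8, was called. Its members Tcf7 and Ccr7 had wide spreads, Tcf7 at 13.8 ± 8.61 and 30.6 ± 15.3 CPM and Ccr7 at 21.7 ± 4.05 and 55.9 ± 25.7 CPM in females and males (edgeR adjusted p 0.952 and 0.855). Of the ribosome biogenesis list 26 of 26 were higher in males, by a median of 0.17, with none called and 2 without overlap. Spindle genes were lower in males in 23 of 25 (median -0.11, none called, 3 without overlap), and cholesterol synthesis genes in 19 of 20 (median -0.13, none called, none without overlap). Exhaustion genes were lower in 13 of 21 and effector genes in 17 of 26, with a median of -0.11 in each list. The exhaustion list held 1 called gene, Nr4a2, and the effector list 1, Gzma. Members of a list vary together, so such a count is not a test.

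The sex difference was last compared between clusters 3 and 5, with the library as a block. In simulated data with the same spread set for every gene, this test recovered 3 of 50 genes changed 1.5-fold and 28 of 50 changed 2-fold. Of 10740 genes, 6 were called by edgeR (0.0559%), 5 with a male-minus-female difference greater in cluster 3 (0.0466%) and 1 with a smaller one (0.00931%). Of the 5, 4 were genes of MHC class II presentation, which dendritic cells and B cells carry at high levels: Cd74, H2-Aa, H2-Ab1 and H2-Eb1. Cd74 stood at 3.05, 5.30 and 8.14 CPM in female libraries 2, 5 and 6 and at 35.7, 11.3 and 33.5 CPM in male libraries 1, 3 and 4 of cluster 3. In cluster 5 it stood at 4.74, 11.7 and 9.72 CPM and at 21.2, 4.66 and 13.1 CPM, where the sexes overlapped. H2-Aa stood at 1.14, 1.18 and 1.81 CPM in female and 7.46, 1.53 and 17.7 CPM in male libraries of cluster 3, so male library 3 lay among the females.

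A few cells held most of these UMIs. In cluster 3, 20 of 2460 cells had 10 or more UMIs of the class II genes and held 1423 of 2521 such UMIs (56.4%). In male library 4, 6 cells held 935 of 1231, and 1 cell alone 478, and in male library 1, 9 cells held 382 of 688. The 20 cells had a median of 53710.5 UMIs, against 23987.5 for the cluster. The cut of 10 UMIs was not scaled for depth, so deep cells reach it more easily. With these cells left out of both clusters, a choice made after seeing the data, 1 gene was called by edgeR, Snhg12. The difference was then 0.29 for Cd74, 0.15 for H2-Aa, 1.07 for H2-Eb1 and -0.06 for H2-Ab1, none of them called. The cells left out were chosen by UMIs of these same genes, so the fall is a description and not a test. Snhg12, a host gene of small nucleolar RNAs, had female and male levels of 71.2 ± 5.15 and 102 ± 13.8 CPM in cluster 3 and 74.9 ± 8.14 and 84.3 ± 10.2 CPM in cluster 5. It passed in only 4 of 10 alternatives. Arhgap15, a Rac inhibitor gene, stood at 93.2 ± 6.30 and 82.7 ± 1.40 CPM in cluster 3 and at 78.5 ± 5.03 and 89.5 ± 2.30 CPM in cluster 5. A doublet caller, run on each library, marked almost no cells and was not used. Whether the cells rich in class II UMIs were doublets was not tested beyond that.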

How the data were processed

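The deposited table holds raw counts (UMIs) of 15601 genes per cell, and the deposited metadata the authors' cluster number. Per the submitters' processing notes Cell Ranger, Seurat and build mm10 were used, with no versions. No source used here gives the filters on cells or the treatment of doublets. A doublet caller (Scrublet) marked almost no cells in the deposited counts and was not used, and doublets were not removed. The number that ends a cell name was taken as the library, and which replicate of the labels it is could not be told.

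Counts were summed per cluster and library. The test between sexes was that of edgeR 4.0.16, under R 4.3.3 (quasi-likelihood test, robust, edgeR's filter on low counts, TMM, Benjamini-Hochberg adjustment). DESeq2 1.42.0 and limma 3.58.1 (voom) were alternatives. Cells were scored for phase with scanpy 1.11.5. The pseudocount was 1 CPM. Intervals are exact binomial at 95% and cover counting error alone, as do limits of 3 counts where 0 were found. The tests were first tried on simulated data.

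Members and lists were chosen with earlier results of these data known. Named genes are the label check and marker genes; called genes (up to 12 a direction, at 5 CPM or more, without overlap; else the next 5 by p); the 15 genes a direction most different from cluster 5 and 12 from all other cells; and, from each list, up to 6 by ratio and 4 by p. E2F, cyclin and CDK inhibitor lists may be named in full, and other genes named were chosen after their values were seen. There were 40 lists. Gene positions came from GENCODE M21 and promoters from RefSeq. Results for some genes are not reported here.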

Additional observations from a re-analysis of the deposited data

Results flagged for a closer look

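The male-minus-female difference of 6 genes was not the same in clusters 3 and 5 by edgeR's test of that difference. It was greater in cluster 3 by a log2 value of 3.74 for H2-Eb1 (edgeR adjusted p = 9.56e-06), 2.86 for H2-Aa (0.00133), 1.88 for Cd74 (3.45e-05), 1.23 for H2-Ab1 (0.0223) and 0.36 for Snhg12 (0.0223). It was smaller by -0.35 for Arhgap15 (edgeR adjusted p = 0.0223). The class II genes rest on few cells, as given above, and the alternatives gave adjusted p up to 0.976 for H2-Eb1, 0.986 for Cd74 and 0.992 for Arhgap15. Snhg12 passed in 4 of 10 alternatives, which gave adjusted p up to 0.976.

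The genes next in order did not pass. Egr1, an immediate early gene, had a difference of -0.44 between the clusters (edgeR adjusted p = 0.251), and Gzmb one of -0.13 (edgeR adjusted p = 0.244).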

How the results depend on the processing

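No paired analysis was possible because the cell names carry no replicate number of the labels. The 15 genes that differed between the sexes became 33 with DESeq2 and 27 without a filter on low counts, and 10 to 30 with single libraries left out (most without male library 3). Other settings gave 10 to 18. The 6 genes whose sex difference varied between clusters 3 and 5 became 0 with limma-voom (532 at an unadjusted p under 0.05), 0 after thinning (440), 19 without a filter, 3 to 11 with single libraries left out (fewest without male library 1, most without male library 3), and 1 without the cells rich in class II UMIs, where the difference of H2-Ab1 turned to -0.0601. The share of cells passed without clusters 2, 6 and 10 (-0.38) and ranged from -0.52 to -0.35 with libraries left out. The 146 genes of cluster 3 over 5 became 224 at 1.5-fold, 87 at 3-fold and 91 at 50 CPM. They ranged from 147 to 157 with libraries left out, and 1 gene was lower without male library 1. The G2/M difference of -1.05 points between the sexes became 1.58 at 2000 UMIs and 0.29 without thinning, and ranged from -3.68 to 1.69 with libraries left out. The UMI difference turned sign as a ratio to the library median (0.41). The cause of these changes was not tested. Cells of cluster 3 were the deepest, so weak genes such as Mybl1 set the limit, at 577 UMIs in 2460 cells.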

Other observations

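S100a8 and S100a9, genes of neutrophils, also rested on few cells of cluster 3. In all, 5 cells held 514 of 652 UMIs of the pair (78.8%), 146 of 168 in 1 cell of female library 2 and 295 of 344 in 2 cells of female library 6. Cluster 5 held 88 such UMIs.

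Il2, the gene of the T cell growth factor, varied between libraries of cluster 3 without regard to sex. It stood at 24.9, 5.50 and 5.88 CPM in female libraries 2, 5 and 6 and at 3.20, 56.3 and 22.9 CPM in male libraries 1, 3 and 4.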
